A study of Mus musculus with 44 samples.

Results

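Kidneys of Bmal1-knockout mice were compared between the night and the day in 8 RNA libraries, 4 taken at night (ZT16 and ZT20) and 4 by day (ZT4 and ZT8). They were chosen by their labels alone, as the knockout libraries at these 4 zeitgeber times (ZT, hours in the light-dark schedule), among 24 kidney RNA libraries and 44 samples in the whole series. All came from mice of the 129SV strain, 8 to 12 weeks of age after birth, on night-restricted feeding, with a Bmal -/- genotype (KO). Each time held 2 libraries, A and B, and the labels do not say whether they are separate animals, so p-values measure the spread between these samples, which may be technical. The 8 wild-type (WT) libraries at the same times had the same strain, age and feeding. Since feeding, activity and darkness all fall in the night here, their parts cannot be told apart. Values are TPM, a length-scaled share of all transcripts in a library, summed per gene.

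Bmal1 (gene symbol Arntl) encodes a transcription factor that pairs with CLOCK or NPAS2 at E-box sequences and drives the negative arm of the circadian clock, the Per, Cry and Nr1d genes. Without it the clock in a cell stops, but signals from outside, such as food, hormones and body temperature, still change over the day. The endoplasmic reticulum (ER) is where secreted and membrane proteins fold. When unfolded proteins build up there, the sensors ATF6, IRE1 and PERK start the unfolded protein response, which raises the ER chaperones. ATF6 and XBP1 act on such genes through the ER stress element, a promoter motif.

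The promoters of 3 ER chaperone genes are shown as examples of list genes that held the motif and differed between night and day below. They do not stand for the most different genes. Sdf2l1, Manf and Hyou1 had larger differences than Hsp90b1 and are not among the genes with a match. Each sequence runs 5′ to 3′ on the gene's strand over the 250 bases before the RefSeq start site (build GRCm38.p6), and the capitals mark the ER stress element, CCAAT, then any 9 bases, then CCACG, read on either strand. The windows are chr2:34771840-34772089 (plus strand) for Hspa5, chr10:86705445-86705694 (minus strand) for Hsp90b1 and chr15:88819396-88819645 (plus strand) for Creld2.
Hspa5: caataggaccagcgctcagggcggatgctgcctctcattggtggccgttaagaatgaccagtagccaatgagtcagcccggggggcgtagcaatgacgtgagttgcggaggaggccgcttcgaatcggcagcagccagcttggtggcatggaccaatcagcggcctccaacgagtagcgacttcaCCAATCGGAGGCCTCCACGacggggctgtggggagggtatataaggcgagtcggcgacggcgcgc
Hsp90b1: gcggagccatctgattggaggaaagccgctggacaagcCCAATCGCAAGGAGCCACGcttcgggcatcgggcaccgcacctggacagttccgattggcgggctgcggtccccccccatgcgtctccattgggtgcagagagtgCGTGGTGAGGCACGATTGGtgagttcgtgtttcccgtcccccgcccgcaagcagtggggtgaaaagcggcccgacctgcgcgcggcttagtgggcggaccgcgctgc
Creld2: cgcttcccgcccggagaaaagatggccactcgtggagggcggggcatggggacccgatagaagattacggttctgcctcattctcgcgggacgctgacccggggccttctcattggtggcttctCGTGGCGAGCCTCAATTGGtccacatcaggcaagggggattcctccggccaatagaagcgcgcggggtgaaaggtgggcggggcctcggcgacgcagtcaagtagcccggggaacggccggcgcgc
Hsp90b1 held 2 matches, 1 on each strand, and the others 1 each. Over windows from 250 bases before to 50 after the start site, 0.119% of 32851 promoters held a match. Counted by gene symbol, as the list is below, the share was 0.137% of 27025. Of the 26 ER list genes with a promoter in the table, 9 did: Calr, Canx, Creld2, Derl3, Dnajc3, Hsp90b1, Hspa5, Pdia6 and Syvn1. A match is only a description of the letters. The shorter element, ATTGG, then any base, then CCACG, was in 0.0365% of promoters and 0.0444% of gene symbols. It was in 2 of these 26 genes, Dnajb11 and Herpud1.

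The library labelled KO ZT4 A went against its label. Cry1, a clock repressor that is high without BMAL1, was at 1.03 TPM in it, against 11.5 to 13.6 in the other 3 day libraries. Nr1d1, a direct target of BMAL1, was at 23.9 TPM in it and at 1.81 to 2.75 in those. In WT at ZT4 the 2 libraries held 1.2 and 0.845 TPM of Cry1 and 22 and 33 TPM of Nr1d1, so on these genes KO ZT4 A lay with WT. Its sum of cytosolic ribosomal proteins (10279 TPM) was also in the range of WT at the same times (9707 to 11091). The other KO libraries compared held 12459 or more. Arntl transcripts lay between 4.19 and 6.2 TPM in the 4 KO night libraries and between 4.98 and 6.28 in the day libraries. They were not set beside WT at ZT4, so they are not used to check the label. Each result below was also computed without KO ZT4 A. Between 12636 and 12865 genes reached 1 TPM in the 8 libraries, mitochondrial genes took 32.3% to 40.3% of TPM, and markers of nephron segments were present (Slc34a1 of the proximal tubule at 1392 to 1803 TPM, Umod of the thick ascending limb at 816 to 1201). TPM keeps no sequencing depth.

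No gene passed the threshold (adjusted p under 0.05, limma) among the 12872 tested in the 8 libraries, a share of 0%. At an unadjusted p under 0.05 there were 1336 genes, of which 505 (3.92%) were higher at night and 831 (6.46%) lower. The night and day libraries did not overlap for 237 genes (1.84%) that were higher at night and 526 (4.09%) that were lower. Without KO ZT4 A, 2 genes passed (0.0155%), Hsp90aa1 and the processed pseudogene Gm10132. The comparison was also fitted together with the other 16 kidney libraries, with a separate mean for each genotype and time. There 101 genes passed, 38 higher (0.295%) and 63 lower (0.489%). That fit has more data on each gene's spread, but its spread is only that between libraries A and B of a time. Differences between ZT4 and ZT8 or between ZT16 and ZT20 do not enter it. With such time means the 8 libraries alone gave 4 calls. Under median-of-ratios scaling the 24-library fit called 106 genes, of which 73 were higher, so the share of higher calls moved from 37.6% to 68.9%. Without KO ZT4 A the 24-library fit called 19, with 10 higher (0.0777%) and 9 lower (0.0699%). Among the other 16 libraries KO ZT12 A stood apart, with a sum of Y-linked genes of 3.31 TPM against 48 to 69.1 in the other 23, and the lowest sum of male-high kidney markers (10515 TPM). Without it 192 genes passed, the same 101 among them, 67 higher (0.521%) and 125 lower (0.973%).

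**Figure D1:**
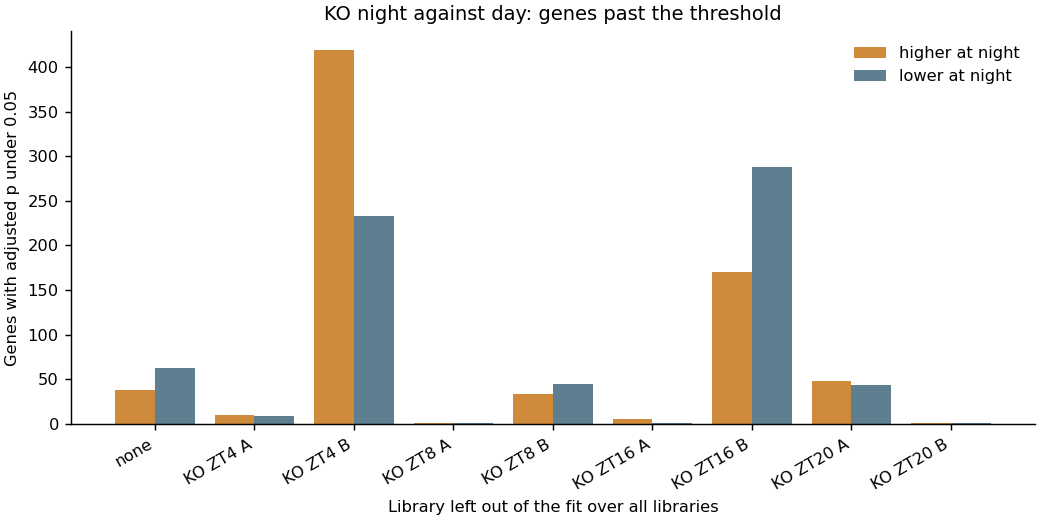
Number of genes past the threshold in the 24-library fit of KO night against KO day, with no library left out (leftmost pair of bars) and with each of the 8 compared libraries left out in turn. Bars show genes higher and genes lower at night. The total ran from 2 genes without KO ZT8 A or without KO ZT20 B to 652 without KO ZT4 B.

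Most ER chaperone genes of the list used here stood higher at night than by day. This and the other gene lists were written with earlier results of these data known. Their shares beside those of all genes are therefore a description and not independent support. Of 32 tested genes of the ER list, 25 had a positive difference, with a median of 0.17 log2 units against -0.01 for all genes tested. The night libraries lay above all day libraries for 11 of them, or 11 of 32 against 1.84% of all genes, and below for none. At an unadjusted p under 0.05 there were 13 higher and 0 lower, against 3.92% and 6.46% of all genes. None passed in the 8 libraries (limma), whereas 10 of 32 passed in the 24-library fit, all higher, against 0.295% of all genes. In that fit 4 of the list passed without KO ZT4 A and 12 without KO ZT12 A. Over the 8 fits that left out 1 compared library each, between 1 and 12 of the list passed, and the lone gene in the smallest count was Sdf2l1.

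Sdf2l1 (ENSMUSG00000022769, GRCm38 chromosome 16, 17130138 to 17132383, minus strand) encodes an ER-resident partner of the HSP40 proteins in protein folding. It was at 14.4 and 15.5 TPM at ZT16 and 23 and 18.3 at ZT20, against 10.5 and 8.3 at ZT4 and 5.66 and 4.83 at ZT8. Both day times were below both night times in every library, and ZT8 held the lowest values. The mean was 17.8 TPM ± 3.82 (SD, n = 4) at night and 7.32 ± 2.59 (SD, n = 4) by day, a log2 difference of 1.31 (SE 0.25, adjusted p 0.2, limma). In the 24-library fit it passed (adjusted p 0.00318), and also without each of the 8 libraries, KO ZT4 A among them (0.00998). It was chosen for description after its values were seen, as were the genes of this group other than Creld2, Hyou1, Calr and P4hb.

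Hspa5 (ENSMUSG00000026864, chromosome 2, 34771970 to 34777547, plus strand) encodes BiP, the main HSP70 chaperone of the ER lumen. Its night values were 251, 292, 188 and 318 TPM and its day values 162, 136, 116 and 114. The lowest night value, in KO ZT20 A, was still above every day value, and the log2 difference was 0.98 (SE 0.17, adjusted p 0.185, limma; 0.0174 in the 24-library fit and 0.0381 in that fit without KO ZT4 A). Creld2 (ENSMUSG00000023272, chromosome 15, 88819646 to 88826683, plus strand), an ER stress-inducible protein, was at 33.3, 27.9, 20.1 and 30.3 TPM at night and 12.8 to 15 by day. The 4 day libraries were close together and again KO ZT20 A was the lowest of the night. Its log2 difference was 0.95 (SE 0.14, adjusted p 0.17, limma). The adjusted p was 0.0122 to 0.417 over the fits without 1 library, and the 1 that passed was the fit without its own lowest night library. In the 24-library fit it was 0.0211, and 0.0681 without KO ZT4 A. Hyou1, an HSP110-class chaperone that acts with BiP, was at 33 TPM ± 4.11 (SD, n = 4) at night and 18.9 ± 3.37 (SD, n = 4) by day, a log2 difference of 0.81 (SE 0.14).

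Manf, a secreted ER stress protein, averaged 102 TPM at night and 53.5 by day, a log2 difference of 0.89 (SE 0.18). Hsp90b1, the ER form of HSP90, averaged 260 and 167. Its day values split by time, at 210 and 182 TPM at ZT4 and 118 and 156 at ZT8. The protein disulfide isomerases differed among themselves, with log2 differences of 0.51 for Pdia4, 0.33 for Pdia6 and -0.09 for P4hb (SE 0.09), which had the largest mean TPM of the list. Calr, a calcium-binding lectin chaperone, overlapped between groups, since its ZT4 libraries (342 and 326 TPM) lay with the night libraries (297 to 399) and its ZT8 libraries did not (235 and 229). Xbp1, a transcription factor of this response, was at 67.1 TPM ± 11.3 (SD, n = 4) at night and 47.8 ± 3.48 (SD, n = 4) by day, with KO ZT20 A at 50.4, inside the day range. Of 7 members with a negative difference, Edem1, of the ER degradation pathway, had the lowest (-0.19), and others were the translocation genes Sec61b (-0.08) and Ssr1 (-0.02) and the degradation gene Derl1 (-0.04).

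The 8 tested list members with an ER stress element in the promoter window had a median log2 difference of 0.36, and the 17 with a promoter in the table and no match had 0.10. Sdf2l1 was among those without these letters in its window. For the shorter element the medians were 0.25 (2 members) and 0.18 (23 without it). In the heat shock list the order was the other way for the heat shock element, a motif of alternating GAA and TTC blocks. Its 4 members with a match had a median of 0.31 and the 15 without had 0.38. None of these splits was tested. In WT the ER list had 30 of 32 members with a positive difference and a median of 0.25. Sdf2l1 differed by 1.29 log2 units there and Hspa5 by 1.11. The difference between genotypes did not pass for any member (0 of 32, with the median KO minus WT at -0.05). For Sdf2l1 that difference was 0.02 log2 units (SE 0.36, adjusted p 0.998, limma), and the standard error allows sizeable differences either way.

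**Figure D2:**
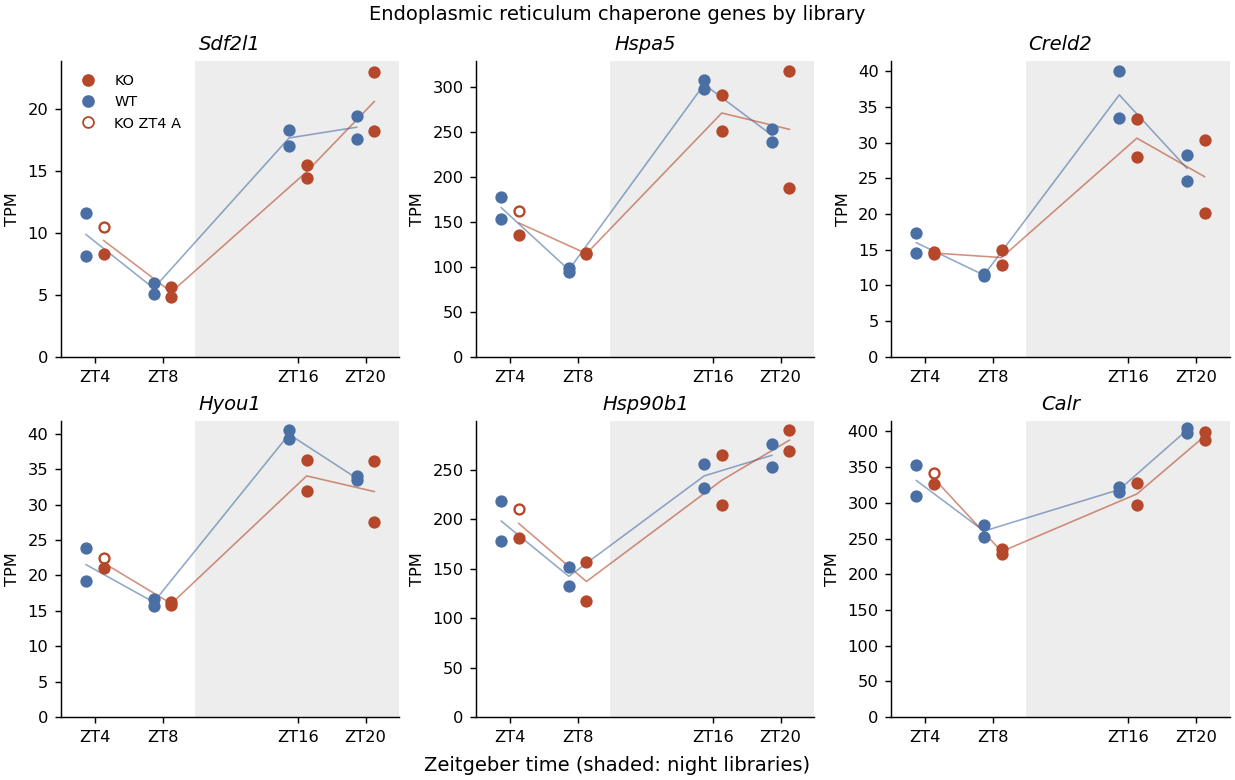
TPM of 6 ER chaperone genes in each library at ZT4, ZT8, ZT16 and ZT20, for KO and WT, with lines through the means of the 2 libraries; the open circle is the library labelled KO ZT4 A and the shaded area holds the night times. For Sdf2l1, Hspa5, Creld2, Hyou1 and Hsp90b1 all 4 KO night libraries lie above all 4 KO day libraries, while Calr overlaps because its ZT4 libraries (342 and 326 TPM) reach the night range.

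The cytosolic heat shock genes also had mostly positive differences, but 1 night library departed from the rest. Of 24 tested, 22 had a positive difference, with a median of 0.39 log2 units (0.39 without KO ZT4 A), and 13 had an unadjusted p under 0.05, all higher, against 3.92% of all genes. The groups did not overlap for 3 of the 24, Hsp90aa1, Stip1 and Fkbp4, against 1.84% of all genes. Summed over the list, the night libraries held 4379, 4364, 2456 and 4189.5 TPM and the day libraries 2681.5 to 2923. The low night library was KO ZT20 A, whose sum lay below those of all day libraries, and the member with the largest TPM is Hspa8. Averaged over members as the log2 distance from each gene's KO mean, KO ZT20 A (-0.18) lay inside the day range (-0.28 to -0.17).

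Hspa8, the constitutive HSP70 of the cytosol, was at 2396 and 2513 TPM at ZT16 and 817 and 2267 at ZT20, against 1030 to 1585 by day. Its log2 difference was 0.49 (SE 0.36, adjusted p 0.691, limma). Hsp90aa1 (ENSMUSG00000021270, chromosome 12, 110690605 to 110702728, minus strand), the inducible cytosolic HSP90, did not share the low value: it was at 299, 298, 309 and 325 TPM at night and 279, 183, 158 and 165 by day. The highest day value was that of KO ZT4 A. With it the log2 difference was 0.69 (SE 0.16, adjusted p 0.215, limma) and without it 0.87 (adjusted p 0.0141), so Hsp90aa1 rose in the comparison without that library. Hsp90ab1, the constitutive form, averaged 393 TPM ± 39.2 (SD, n = 4) at night and 296 ± 39.1 (SD, n = 4) by day. The co-chaperones Stip1 (0.48), Fkbp4 (0.36) and Chordc1 (0.64) passed in the 24-library fit together with both HSP90 genes. These 5 of 24 were the heat shock calls in it, all higher, against 0.295% of all genes. Without KO ZT4 A the calls of the HSP90 genes remained (adjusted p 0.0192 and 0.0446) and those of Stip1 (0.0855), Fkbp4 (0.0646) and Chordc1 (0.127) were lost. Under median-of-ratios scaling of that fit with all libraries, 4 of the list passed and the call of Hsp90ab1 was lost. The stress-inducible Hsph1 was at 36.4, 31.2, 13 and 26.5 TPM at night and 12.1 to 16.9 by day, with KO ZT20 A again inside the day range. The mitochondrial chaperones Hspd1 (-0.02) and Hspe1 (-0.08) differed little. In WT, 23 of 24 members had a positive difference (median 0.52), and no member's difference between genotypes passed.

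**Figure D3:**
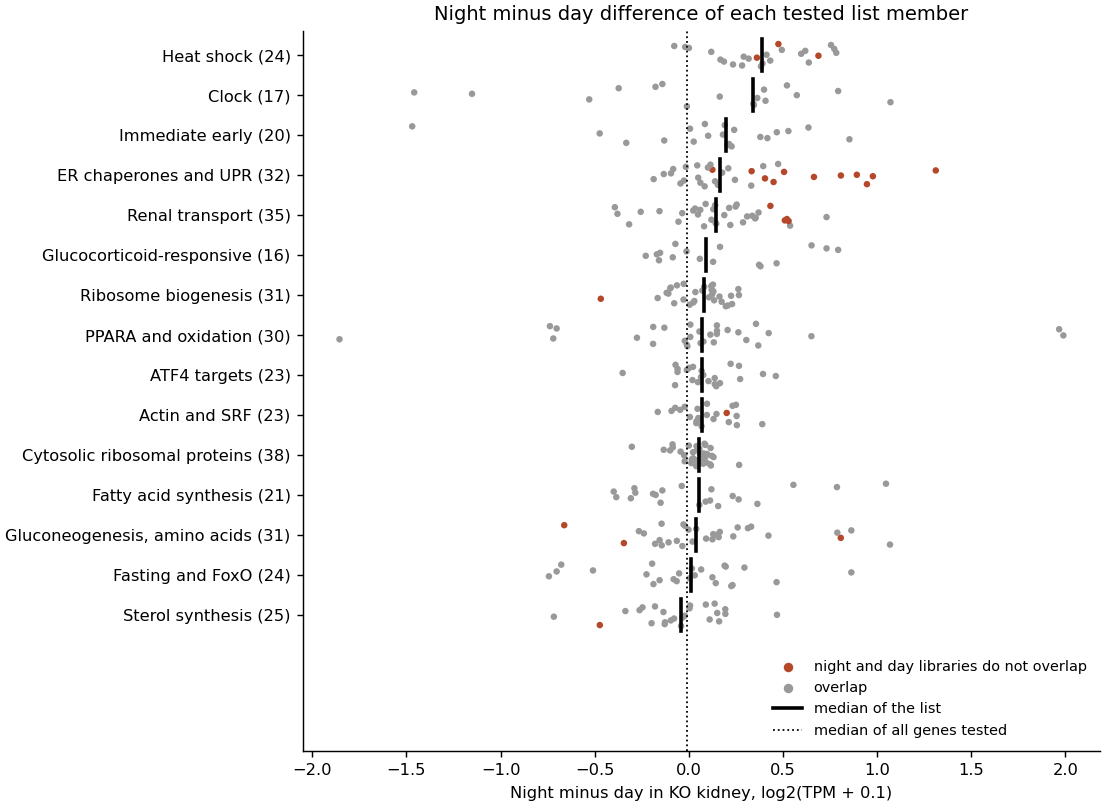
Night minus day difference on the log2(TPM + 0.1) scale in KO kidney for each tested member of 15 gene lists (number tested in brackets), with the list median as a bar and the median of all genes tested as a dotted line. Red points are genes whose 4 night and 4 day libraries do not overlap; the ER list holds 11 of them on the right, heat shock 3 and renal transport 4.

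The next list was that of tubular sodium, water, potassium and glucose transport. Of its 35 genes, 28 had a positive difference (median 0.15), or 25 without KO ZT4 A (median 0.08). At an unadjusted p under 0.05, 6 were higher and 1 was lower (Slc2a2, -0.26), against 3.92% and 6.46% of all genes. The groups did not overlap for 4, all higher at night, which were Scnn1a, Kcnj10, Kcnj1 and Stk39, against 1.84% of all genes. The 24-library fit called 2 of 35 as higher, Scnn1a and Kcnj10, against 0.295% of all genes, and 0 without KO ZT4 A. Scnn1a (ENSMUSG00000030340, chromosome 6, 125320659 to 125344943, plus strand) encodes the alpha subunit of the epithelial sodium channel of the collecting system. It was at 50.9, 44.3, 47.6 and 45.7 TPM at night and 29.2, 33, 34.1 and 35 by day, a gap with no library between 35 and 44.3. The log2 difference was 0.52 (SE 0.08, adjusted p 0.17, limma; 0.0433 in the 24-library fit, and 0.13 in that fit without KO ZT4 A). Its WT difference was also 0.52.

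Kcnj10, a basolateral potassium channel of the distal convoluted tubule, averaged 18.3 TPM ± 1.37 (SD, n = 4) at night and 12.8 ± 1.28 (SD, n = 4) by day, and passed in the 24-library fit (adjusted p 0.0211), though not without KO ZT4 A (0.0769). Kcnj1, the apical potassium channel ROMK, was at 102 to 119 TPM at night and 56, 96.7, 89.8 and 77 by day, where the lowest was KO ZT4 A. Stk39, the kinase SPAK that acts on the sodium-chloride cotransporter, averaged 21 and 15.5 TPM. The cotransporter itself, Slc12a3, overlapped between groups, and its difference was 0.34 log2 units with KO ZT4 A (157 TPM, against 233 to 247 in the other day libraries) and 0.19 without it. The most abundant members of the list, Fxyd2 (-0.06) and the phosphate transporter Slc34a1 (-0.16), had negative differences. Over 6 markers each, the median was 0.42 for the thick limb (0.27 without KO ZT4 A), 0.07 for the distal convoluted and connecting tubule (-0.10) and 0.25 for principal cells (0.13). In bulk tissue more cells of a segment and more RNA per cell cannot be told apart. The part of these markers in the transport values was not tested.

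Other genes with the smallest p-values on the higher side were enzymes. Glul (ENSMUSG00000026473, chromosome 1, 153899944 to 153909723, plus strand), glutamine synthetase, was at 354, 261, 227 and 295 TPM at night and 150, 185, 152 and 155 by day, a log2 difference of 0.81 (SE 0.14, adjusted p 0.17, limma). All night libraries were above all day libraries, and the WT difference was 0.78. Gldc, the glycine decarboxylase of the mitochondrial glycine cleavage system, was at 60.4, 41.5, 65.7 and 60.2 TPM at night and 28.6 to 34.9 by day, a log2 difference of 0.81 (SE 0.14, adjusted p 0.17, limma). The adjusted p was 0.0165 to 0.433 over the fits without 1 library, and the fit without its own lowest night library, KO ZT16 B, was the only alternative in which it passed. P4ha2 (ENSMUSG00000018906, chromosome 11, 54100095 to 54131665, plus strand), a collagen prolyl 4-hydroxylase of the ER, was at 12.9 to 16.7 TPM at night and 7.95 to 9.76 by day. Its log2 difference was 0.64 (SE 0.11), with an adjusted p of 0.17 in the 8 libraries (limma), 0.0174 in the 24-library fit and 0.0446 in that fit without KO ZT4 A. Tardbp, an RNA-binding protein, and Dynll1, a dynein light chain, were chosen after their values were seen, and differed by 0.57 and 0.71 log2 units with no overlap between groups.

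On the lower side, the smallest p of all 12872 genes was that of Olfm4 (ENSMUSG00000022026, chromosome 14, 79984081 to 80023139, plus strand), which encodes a secreted glycoprotein. It was at 3.29, 3.81, 4.69 and 3.64 TPM at night and 8.97, 8.42, 7.48 and 7.77 by day. The groups were well apart, and the log2 difference was -1.07 (SE 0.12, adjusted p 0.0605, limma), just short of the threshold. It passed with a minimum of 5 TPM (adjusted p 0.0325), and on the 4 time means (0.0265), and over the fits without 1 library its adjusted p ran from 0.0122 to 0.292. In the 24-library fit the adjusted p was 0.131, and 0.015 without KO ZT12 A. Its WT difference was -0.27.

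Vps8, a subunit of the endosomal CORVET tethering complex, was at 13.6 to 15.9 TPM at night and 22.8 to 30.9 by day (log2 difference -0.81, SE 0.11, adjusted p 0.124, limma). Tmem161a, a membrane protein, averaged 21.5 TPM ± 2.4 (SD, n = 4) at night and 38.9 ± 5.52 (SD, n = 4) by day. Rdh5, a retinol dehydrogenase, was at 10.1 to 12.1 TPM at night and 16.1 to 20.8 by day. Arsg, a lysosomal sulfatase, was at 10.8 to 18.5 and 24.2 to 27.7 TPM, and Bco2, a mitochondrial carotenoid-cleaving enzyme, at 4.56 to 5.51 and 6.61 to 7.29. In none of these 5 did a night library reach the day range. Arsg and Bco2 had WT differences of -0.84 and -0.42 log2 units, close to their KO differences of -0.83 and -0.51, whereas Vps8 (-0.14), Tmem161a (-0.07) and Rdh5 (0.06) had small ones in WT; none of the 5 differences between genotypes passed (adjusted p 0.299 to 0.998, limma).

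**Figure D4:**
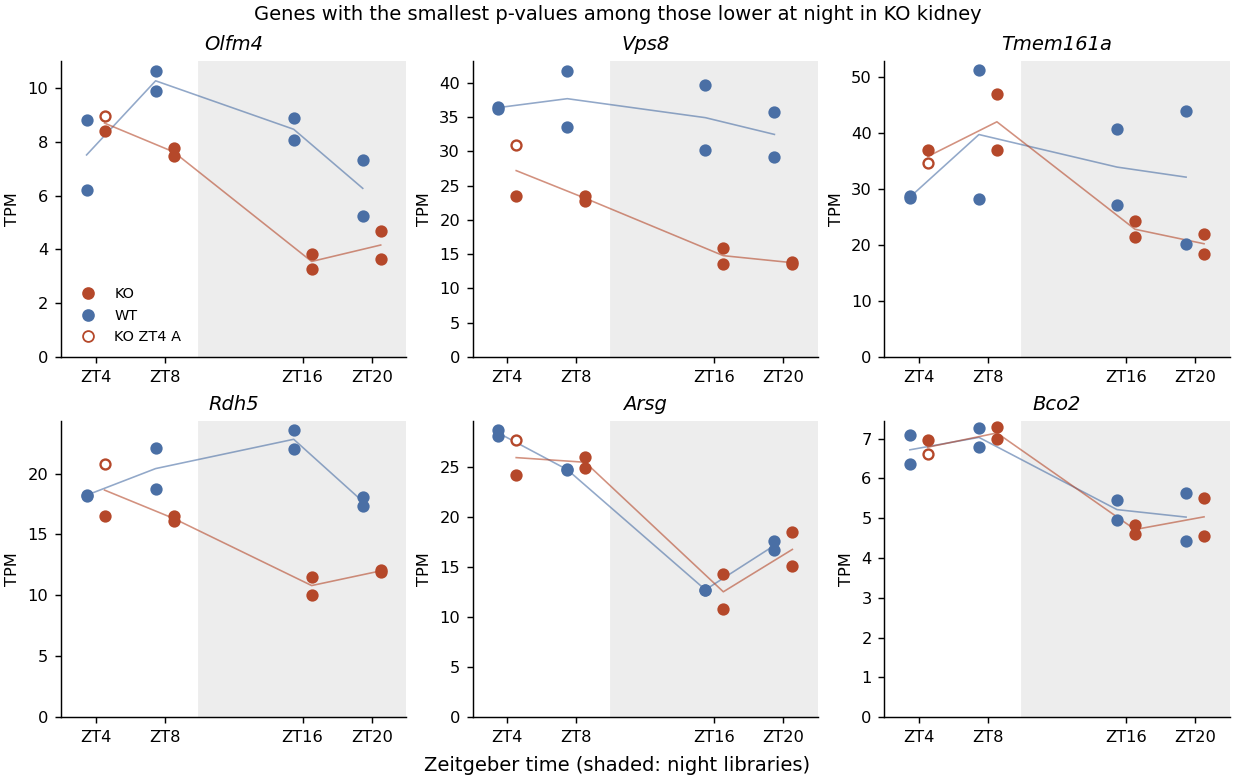
TPM of the 6 protein-coding genes with the smallest p-values among those lower at night in KO kidney, in each KO and WT library at ZT4, ZT8, ZT16 and ZT20, drawn as in the plot of ER chaperones. In each panel all 4 KO night libraries lie below all 4 KO day libraries, as for Olfm4 at 3.29 to 4.69 TPM against 7.48 to 8.97.

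Gys2, Slc6a19, Wipi1 and Glb1, chosen after their values were seen, passed in the 24-library fit. Without KO ZT4 A none of these 4 did (adjusted p 0.0555, 0.115, 0.0769 and 0.0646 in that order), and under median-of-ratios scaling Slc6a19 (0.055) and Glb1 (0.0599) did not. Gys2, a glycogen synthase known from liver, was at 3.3, 2.29, 5.09 and 5.05 TPM at night and 12.9, 7.81, 8.24 and 7.3 by day, a log2 difference of -1.22 (SE 0.28; adjusted p 0.22 in the 8 libraries and 0.0174 in the 24-library fit, limma). Slc6a19, the main neutral amino acid transporter of the proximal tubule brush border, averaged 64 TPM ± 10.9 (SD, n = 4) at night and 101 ± 17.1 (SD, n = 4) by day, with a larger WT difference of -1.31 log2 units against -0.66 in KO. The change between genotypes, 0.65 (SE 0.20), did not pass (adjusted p 0.509, limma). Wipi1, an autophagy protein, and Glb1, lysosomal beta-galactosidase, were at 11.7 and 42.1 TPM at night and 16.9 and 54.4 by day.

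Male-high kidney markers moved with the same groups and are given here because the lower side could hold them. Of 7 tested, 6 had a negative difference, 5 of them with an unadjusted p under 0.05, against 6.46% of all genes on the lower side. The median of the 7 was -1.005 log2 units, or -0.65 without KO ZT4 A. Kap, an androgen-regulated proximal tubule gene and the most abundant of them, was at 14822, 18727, 18532 and 25370 TPM at night and 35748, 25173, 31169 and 26687 by day. The list sum ranged from 15403 to 26496 TPM at night and from 26062 to 38639 by day, so only KO ZT20 B reached into the day range. In WT at the same times it ranged from 33167 to 44151. Of the 8 KO libraries only KO ZT4 A, the highest of the day (38639), lay in that range. Slco1a1 was at 1.57 to 17.7 TPM at night and 10.9 to 75.2 by day, and Acsm3 at 74.9 to 219 and 254 to 1200. In each case the highest night value was that of KO ZT20 B and the highest day value that of KO ZT4 A. No member passed in the 8 libraries or in the 24-library fit (limma), but Kap passed in that fit without KO ZT12 A (adjusted p 0.0398), and their part in the other values was not tested. Adrenal marker sums stayed between 0.861 and 1.35 TPM in the 8 libraries, with Cyp11b2 listed at 0 in all of them.

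Gene lists of feeding and fasting showed smaller medians. Of 21 fatty acid synthesis genes 11 had a positive difference (median 0.06), and among them Scd2, a stearoyl-CoA desaturase, passed in the 24-library fit (adjusted p 0.0174, and 0.0618 without KO ZT4 A). It was at 37.4, 22.5, 38.4 and 33.2 TPM at night and 14.7 to 23.4 by day, an overlap of 1 library. Me1, malic enzyme, and Acss2, acetyl-CoA synthetase, were at 108 and 92 TPM at night and 145 and 102 by day. Of 24 fasting and FoxO genes 13 had a positive difference (median 0.01), and 7 without KO ZT4 A (median -0.08). Pck1, the gluconeogenic enzyme phosphoenolpyruvate carboxykinase, was at 1174, 1014, 803 and 1076 TPM at night, against 434 and 345 at ZT4 and 842 and 745 at ZT8. The day times thus differed from each other by more than ZT8 differed from the night, and the log2 difference of 0.86 (SE 0.29) did not pass (adjusted p 0.376, limma). Igfbp1, a fasting-responsive gene of liver and kidney, had a difference of -0.74 in KO and -2.75 in WT, and that gap of 2.00 log2 units (SE 0.54) did not pass (adjusted p 0.489, limma). Fbp1, fructose-bisphosphatase, averaged 695 TPM at night and 775 by day.

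Sterol synthesis genes had a median of -0.04 (10 of 25 positive), with Ebp at -0.13 and Hmgcs1 at -0.08, against 0.20 in WT (20 positive). Genes of PPARA and fatty acid oxidation had a median of 0.07 (19 of 30 positive). Acadm, a medium-chain dehydrogenase, differed by -0.19, and Cyp4a10, a fatty acid hydroxylase, ranged from 128 to 625 TPM at night. The ATF4 list had a median of 0.07 (17 of 23 positive; Cth 0.02, Shmt2 0.00), the gluconeogenesis and amino acid list 0.04 (17 of 31; Pck1 above and Ass1 at -0.35), and the glucocorticoid list 0.09 (9 of 16; Mt1 -0.17, Errfi1 -0.16). Immediate early genes had a median of 0.20 with 16 of 20 positive, and Jund was at 0.18 and Ccn2 at 0.21. Of the 20, 5 had an unadjusted p under 0.05, all higher, against 3.92% of all genes. Ribosome biogenesis (median 0.08; Ncl -0.03, Npm1 -0.12), cytosolic ribosomal proteins (0.06, or -0.05 without KO ZT4 A; Rplp1 0.06, Rps19 -0.13) and actin genes (0.07; Actb 0.26, Actg1 0.39) lay close to the median of all genes. None of these lists had a member past the threshold in the 8 libraries (limma). Of the pair of cold-inducible RNA-binding proteins, Cirbp averaged 42.8 TPM at night and 60.1 by day, and Rbm3 82.2 and 79.2.

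The values of the clock genes depended on KO ZT4 A. The median of 17 tested was 0.34 log2 units with that library (10 positive) and 0.06 without it (9 positive), and none passed in either comparison (limma). Cry1 was at 13.1 to 15.6 TPM at night, and its log2 difference was 1.07 (SE 0.84) with KO ZT4 A and 0.20 without. Nr1d1 was at 1.24 to 2.41 TPM at night, and its difference was -1.15 and -0.32 in that order. Tef, an output transcription factor of the clock, differed by -0.14, and Dbp, of the same family, by -0.53 in KO and -1.89 in WT. Npas2, the partner of BMAL1, was at 20.7 to 25.1 TPM at night and at 18.1 to 21.8 in the 3 other day libraries, against 6.68 in KO ZT4 A. Arntl had a difference of -0.01 in KO and 1.09 in WT.

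The last comparison asked whether the night to day difference of a gene was the same in KO as in WT. Of 12867 genes tested, 1 passed (0.00777%, with 931 at an unadjusted p under 0.05, limma). It was Cyp24a1 (ENSMUSG00000038567, chromosome 2, 170482708 to 170497145, minus strand), the 24-hydroxylase that inactivates vitamin D. In KO it was at 51.8, 60.5, 75.9 and 28.5 TPM at night and 22.1, 7.56, 11.2 and 26.1 by day. In WT it was at 6.71, 6.07, 9.07 and 11.2 TPM at night and 39.6, 39.3, 60.5 and 45.1 by day. The direction was thus opposite, with no overlap in either genotype: 1.77 log2 units in KO and -2.48 in WT, a difference of 4.26 (SE 0.54, adjusted p 0.0285, limma). It was 4.44 without KO ZT4 A (adjusted p 0.0129), and in that fit Cry1 passed too, with a smaller difference in KO than in WT. Over 16 fits without 1 library the difference was 3.93 to 4.53 log2 units, and it passed in 9 of them (adjusted p 0.0107 to 0.111). With a replicate block it did not pass (adjusted p 0.05001). The fits that ended the call left out KO ZT8 A (0.0971), WT ZT4 A (0.0885), WT ZT4 B (0.0865), WT ZT8 A (0.0541), WT ZT16 A (0.0717), WT ZT16 B (0.111) or WT ZT20 A (0.0906). Within KO alone the gene did not pass (adjusted p 0.314), and in the other KO libraries it was at 9.95 and 2.68 TPM at ZT0 and 6.67 (KO ZT12 A) and 36.9 at ZT12.

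The next genes by p did not pass. Npy, neuropeptide Y, was at 4.29, 4.07, 2.64 and 3.59 TPM at night in KO and 4.61 to 5.96 by day, and in WT at 6.22 to 7.73 and 3.93 to 4.95. Its difference between genotypes was -1.24 log2 units (SE 0.19, adjusted p 0.0617, limma), and it passed in 3 alternatives and in 5 fits without 1 library. Hsd3b3, a steroid dehydrogenase, was at 18.5 to 25.4 TPM at night in KO and 32.3 to 48.1 by day, against 52.5 to 82.2 and 41.5 to 55.2 in WT (difference -1.30, SE 0.24, adjusted p 0.175, limma). Isoc2a, an isochorismatase-domain protein, was at 116 to 124 TPM at night and 132 to 141 by day in KO, and at 148 to 169 and 135 to 147 in WT (-0.39, SE 0.07, adjusted p 0.207, limma). On the other side, Neil2, a DNA glycosylase, differed by -0.39 in KO and -1.57 in WT, and Dact2, a regulator of Wnt and TGF-beta signalling, by 0.26 and -0.53. Their adjusted p-values were 0.252 and 0.26 (limma).

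**Figure D5:**
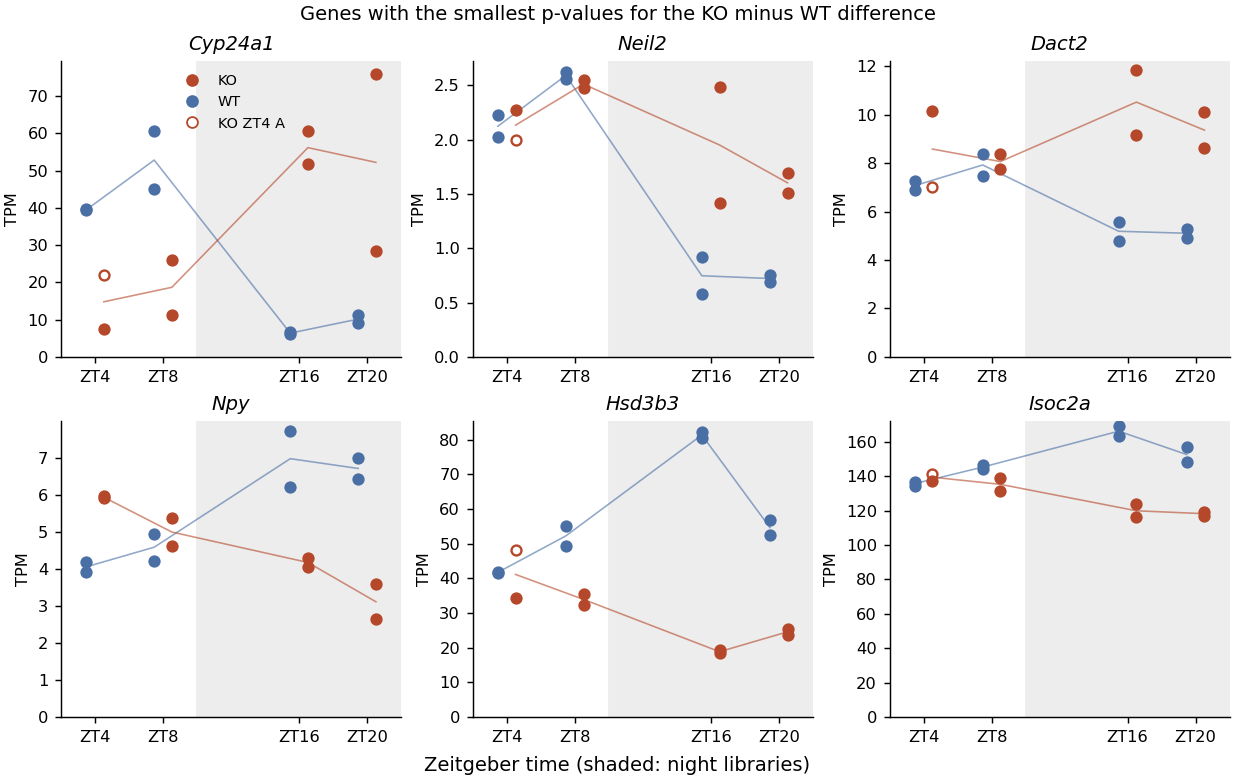
TPM of the 6 protein-coding genes with the smallest p-values for the difference between genotypes in night minus day, in each KO and WT library, drawn as in the plot of ER chaperones. Cyp24a1 runs in opposite directions, with KO at 28.5 to 75.9 TPM at night and WT at 6.07 to 11.2.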

How the data were processed

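Of 24 mouse kidney RNA libraries, the 8 from knockouts at ZT4, ZT8, ZT16 and ZT20 are compared here. The authors deposited TPM per transcript, made with kallisto 0.42.4 per the submitters' processing notes, which name the builds mm10 and GRCm38. The index release is not given in the sources used here. TPM keeps no depth, so no counting interval was computed. Transcripts were summed to genes through GENCODE M21, which matched 86119 of 88198. The 4C-seq samples were not used.

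Values were taken as log2(TPM + 0.1) where a gene averaged 1 TPM or more over the libraries compared. A fold on this scale understates changes of low genes. limma 3.58.1 in R 4.3.3 (lmFit, eBayes with trend and robust) gave two-sided p-values, adjusted by Benjamini-Hochberg over all genes tested, with 0.05 as the threshold. The night against day fit held the 8 libraries in 2 groups. The KO minus WT difference was fitted on 16 libraries in 4 groups. Both were tested on simulated data first. Promoters came from RefSeq.

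Named genes were the 6 protein-coding genes per direction with the smallest p-values (none passed), the 3 per direction for the KO minus WT difference, Arntl, Cry1 and Nr1d1, and in each list without a call the 2 with the largest mean TPM. A gene that the rule names is not reported here. Any other gene named was chosen after its values were seen. Members and lists were chosen with earlier results of these data known. Alternatives covered the pseudocount, filter, scaling, time means, eBayes options, replicate block, larger fits and each library left out.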

Additional observations from a re-analysis of the deposited data

Results flagged for a closer look

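The change in Cyp24a1 from day to night differed between genotypes by 4.255 log2 units (adjusted p 0.0285, limma). With a replicate block the call was lost (adjusted p 0.05001), as it was in 7 of 16 fits without 1 library. The other results here are single libraries that lay far from the other 3 of their group. Chance picks about 1 in 20 groups in this way, and 170 groups were looked at.

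By day, KO ZT4 A stood apart for Acsm3 (1200 TPM, others 253.6 to 343.5), Cry1 (1.035, others 11.54 to 13.58), Gys2 (12.95, others 7.296 to 8.24), Hsp90ab1 (354.2, others 274.4 to 277.6) and Nr1d1 (23.85, others 1.807 to 2.754). It did so too for Rdh5 (20.79, others 16.09 to 16.55), Slc12a3 (156.9, others 233.2 to 247.1) and Vps8 (30.9, others 22.79 to 23.53). KO ZT4 B stood apart for Glul (185.5, others 150.3 to 154.5), KO ZT8 A for Cyp4a10 (282.9, others 140.9 to 151.8) and Mt1 (204.8, others 137.3 to 148.5), and KO ZT8 B for Hmgcs1 (111.4, others 132.2 to 135.1).

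At night, KO ZT20 A was low for Chordc1 (16.34 TPM, others 24.36 to 25.5) and Hspa8 (816.6, others 2267 to 2513). KO ZT20 B was high for Slco1a1 (17.71, others 1.567 to 2.516) and Cyp4b1, a cytochrome P450 of the male-high list (663.6, others 236.7 to 291.7), and low for Ren1, renin (147.0, others 222.7 to 225.7). KO ZT16 B was high for Vps8 (15.94, others 13.58 to 13.93).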

How the results depend on the processing

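The night against day comparison called 0 genes in the 8 libraries with a pseudocount of 1 or 0.01, median-of-ratios scaling, eBayes without trend and robust, or the 12 KO libraries. It called 3 with no filter, 1 with a minimum of 5 TPM, 4 on the 4 time means and 101 in the 24-library fit. That fit was extended after seeing the data: it called 102 with a replicate block, 106 with median-of-ratios scaling, 192 without KO ZT12 A, and 2 to 652 without 1 library. The 8-library fit without 1 library called 0 to 5. The KO minus WT difference, with 1 call, gave 2 with a pseudocount of 1, no filter, a minimum of 5 TPM or median-of-ratios scaling, and 0 to 4 without 1 library. With the replicate block it gave 0, and 8-library night against day also 0. The B minus A differences of the KO libraries at ZT4, ZT8, ZT16 and ZT20 correlated between times at -0.087 to 0.176. WT libraries were not checked in this way, so whether the letters pair the samples is not known. The cause of the shifts between settings was not tested.

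Signs turned only in fits without 1 library, for Arntl (-0.144 to 0.124), Cth (-0.120 to 0.159), Errfi1 (-0.363 to 0.045), Fxyd2 (-0.123 to 0.018), Hmgcs1 (-0.226 to 0.069), Ncl (-0.135 to 0.073), Npm1 (-0.257 to 0.022), Rbm3 (-0.092 to 0.235), Rplp1 (-0.044 to 0.144) and Shmt2 (-0.080 to 0.083). Of 2682 alternatives for 91 gene values, 2346 kept direction and call, 279 gained a call, 8 lost it and 49 turned sign. TPM gives no depth, so counting error is unknown, and 2 libraries per time limit every comparison.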
